A study of Homo sapiens with 9 samples.

Results

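The hypoxia response and glycolysis genes were examined in WM793TR cells, a human melanoma line from a vertical growth phase tumour with mutant BRAF, to ask how their mRNA levels differ with the level of TWIST1, a basic helix-loop-helix transcription factor of epithelial-mesenchymal transition. The members were 45 listed genes, of which 44 were analysed here among the 19934 genes with a named probe set. SLC16A3 was not analysed here. Of the 44, 25 act in oxygen sensing or in the hypoxia response and 19 act in glucose transport, glycolysis or the fate of pyruvate.

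The study had 3 groups of 3 single-colour arrays. Cells named shTWIST1+TWIST1 carried the TWIST1 shRNA with a TWIST1 cDNA rescue construct under a CMV promoter, cells named shTWIST1 carried the TWIST1 shRNA alone, and shControl cells carried a control shRNA. All 3 groups received doxycycline at 100 ng/mL for 96 h, so no group was without the inducer. The labels call the last group basal and name no low-oxygen exposure, and they do not say whether the 3 arrays of a group came from separate cultures. The study's methods state in general that experiments were independent repeats, without naming the arrays, so p-values measure the spread between these arrays, which may be technical in part. The values were log2 RMA expression, in which a difference of 1 is a doubling.

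Cells respond to low oxygen mainly through the HIF transcription factors. In oxygen, the prolyl hydroxylases EGLN1 and EGLN3 mark the alpha subunits HIF1A and EPAS1 for destruction by the VHL complex. In hypoxia the alpha subunits persist, pair with ARNT and bind short motifs such as ACGTG. They raise genes of glucose uptake, glycolysis, angiogenesis, mitophagy and collagen hydroxylation. Many melanomas run high glycolysis in oxygen as well, so these genes are also read as a measure of metabolic state.

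TWIST1 itself read 8.75, 8.90 and 8.27 on the shTWIST1+TWIST1 arrays, 6.18, 6.22 and 6.28 on the shTWIST1 arrays and 6.77, 7.10 and 7.15 on the shControl arrays. The groups did not overlap, and the cells with the cDNA stood above the control, so the comparisons with them concern TWIST1 above the shControl level. Relative to shControl the log2 fold change was 1.63, and relative to shTWIST1 it was 2.41 (limma, adjusted p = 0.00199 and 0.000291), whereas the difference of -0.78 between shTWIST1 and shControl did not pass the test (adjusted p = 0.293). Of the melanocyte lineage markers, SOX10 read 8.46, 8.62 and 8.07 with the TWIST1 cDNA, 8.77, 8.41 and 8.70 in shTWIST1 and 9.05, 8.76 and 8.83 in shControl. MITF read 4.95, 5.28 and 5.32 with the cDNA, 5.48, 5.49 and 5.40 in shTWIST1 and 5.37, 5.54 and 5.49 in shControl. MITF was lower with the cDNA than in both other groups without overlap, while SOX10 was lower without overlap than in shControl and overlapped shTWIST1. None of these differences passed (adjusted p of 0.182 or more). The pigment genes PMEL, MLANA and TYR lay between 2.51 and 2.95 on every array, below the array medians of 4.73 to 4.79.

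Where TWIST1 was above the control level, the glucose transporter gene SLC2A1 fell, to 0.405 of the shTWIST1 level and 0.446 of the shControl level, and it was the only member that passed against both other groups in the fit without a replicate block. Against shTWIST1, the collagen lysyl hydroxylase gene PLOD2 and the enolase gene ENO2 fell as well, and PFKFB3, whose product makes the strongest allosteric activator of phosphofructokinase, rose 2.30-fold. The other 40 members were called in no comparison of this fit of the 3 groups without a replicate block, the alpha subunit genes and most enzymes of the glycolytic chain among them. Knockdown alone gave no call among the members.

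In shTWIST1+TWIST1 against shControl, 0 of 44 members were called higher and 1 was called lower, at an adjusted p under 0.05 by limma with Benjamini-Hochberg adjustment over all genes, against 1.08% of all genes called higher and 1.55% called lower. The arrays of both groups did not overlap for 1 member that was higher and 11 that were lower (25.0% of the members), against 10.4% of all genes higher and 8.15% lower. The 11 were HIF1A, STC2, BNIP3, NDRG1, ANKRD37, P4HA1, PLOD2, SLC2A1, HK1, PFKP and ENO2. The median log2 fold change of the members was -0.14 against 0.02 over all genes, and 34 of 44 members (77.3%) had a negative value against 43.6% of all genes.

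In shTWIST1+TWIST1 against shTWIST1, 1 of 44 members was called higher and 3 were called lower (6.82%), against 1.65% of all genes called higher and 1.77% called lower. The groups did not overlap for 2 members that were higher and 9 that were lower (20.5%), against 9.77% of all genes higher and 8.86% lower. The 9 were STC2, PLOD1, PLOD2, KDM3A, SLC2A1, HK1, PFKP, ENO2 and PDK1. The members' median log2 fold change was -0.21 against 0.01 over all genes, and 36 of 44 (81.8%) were negative against 48.1%. Both comparisons rest on the same shTWIST1+TWIST1 arrays.

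In shTWIST1 against shControl, 0 of 44 members were called in either direction by limma, against 0.00502% of all genes called higher and 0.0602% called lower. At an unadjusted p under 0.05 by limma there were 2 members, ARNT and INSIG2, against 1320 of all 19934 genes. The 2-group test named in the study's methods gave 0 members, adjusted or not. The groups did not overlap for 3 members that were higher and 2 that were lower, against 5.66% of all genes higher and 6.18% lower. The median was 0.08 against 0.02 over all genes, and 16 of 44 members (36.4%) were negative against 44.5%. The plot of fold changes gives all 44 members in the 3 comparisons.

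**Figure D1:**
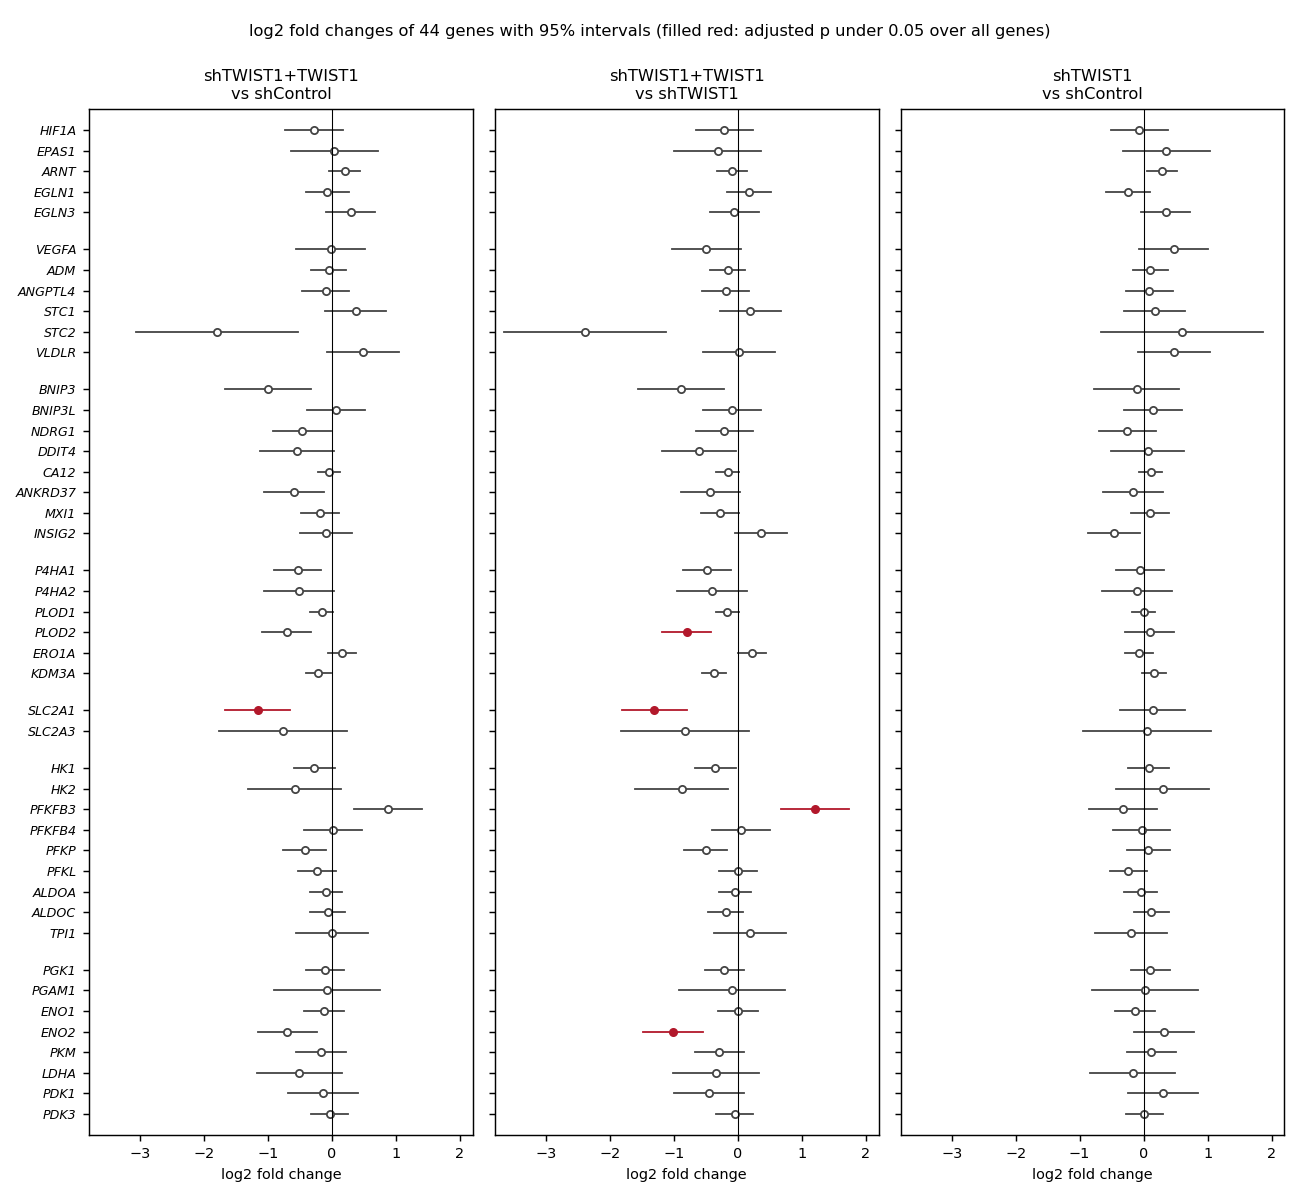
log2 fold changes (x axis) of the 44 genes, grouped by role down the page, in the 3 comparisons, with 95% intervals from limma (n = 3 arrays per group). Filled red points passed an adjusted p under 0.05 over all genes, which held for SLC2A1 against shControl and for SLC2A1, PLOD2, ENO2 and PFKFB3 against shTWIST1.

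SLC2A1 (GLUT1) and SLC2A3 (GLUT3) encode facilitative glucose transporters, and both are HIF targets. SLC2A1 read 7.81, 7.59 and 8.16 on the shTWIST1+TWIST1 arrays, 9.36, 8.83 and 9.29 on the shTWIST1 arrays and 9.22, 8.61 and 9.23 on the shControl arrays. All 3 arrays with the TWIST1 cDNA lay below all 6 others, and the shTWIST1 and shControl arrays overlapped. The log2 fold change was -1.30 ± 0.22 against shTWIST1 (SE, n = 3 each; limma, adjusted p = 0.0184), or 0.405-fold, and -1.17 ± 0.22 against shControl (adjusted p = 0.0339), or 0.446-fold. Against shTWIST1 SLC2A1 no longer passed without shTWIST1+TWIST1 replicate 1, shTWIST1 replicate 1 or shTWIST1 replicate 3 (adjusted p = 0.0638, 0.0821 and 0.0716). Against shControl it no longer passed without shTWIST1+TWIST1 replicate 1 or 2 (0.105 and 0.0836), shTWIST1 replicate 1 or 3 (0.0579 and 0.0598) or shControl replicate 1 or 3 (0.133 and 0.122), and in a fit of only the 6 arrays compared. In every one of these fits the log2 fold change stayed between -1.47 and -1.04. With the replicate number as a block in limma, SLC2A1 passed in both comparisons (adjusted p = 0.00127 against shTWIST1 and 0.00235 against shControl). Knockdown gave 0.14 for SLC2A1, with a 95% interval of -0.37 to 0.65.

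SLC2A3 did not pass in any comparison. It ranged from 5.19 to 7.65 over the 9 arrays. Replicate 2 was the highest of each group for this gene, and its log2 fold changes of -0.82 against shTWIST1 and -0.77 against shControl had intervals that spanned 0 (adjusted p = 0.385 and 0.490).

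Among the 9 members of upper glycolysis, from the hexokinases to triose phosphate isomerase, 1 was called higher and none lower against shTWIST1. None was called against shControl. Over all genes, 1.65% were called higher against shTWIST1. PFKFB3 makes fructose 2,6-bisphosphate. It read 8.66, 8.55 and 8.53 with the TWIST1 cDNA, 7.25, 7.33 and 7.55 in shTWIST1 and 7.09, 7.93 and 8.09 in shControl. The shTWIST1+TWIST1 arrays were the tightest of the 3 groups and lay above all others, while the shControl arrays were spread over 1 log2 unit, with replicate 1 below every other array. The log2 fold change was 1.20 ± 0.23 against shTWIST1 (adjusted p = 0.0299) and 0.87 ± 0.23 against shControl (adjusted p = 0.111). The first was lost when any 1 of the 6 arrays of the 2 groups was left out, with adjusted p between 0.056 (without shTWIST1+TWIST1 replicate 2) and 0.113 (without shTWIST1 replicate 1), and kept without any 1 shControl array. PFKFB4, the sister enzyme, had log2 fold changes of 0.05 and 0.02.

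Hexokinase 2, the inducible enzyme that traps glucose as glucose 6-phosphate, did not pass. HK2 read 7.44, 6.99 and 6.71 in shTWIST1+TWIST1, 7.91, 8.52 and 7.36 in shTWIST1 and 7.32, 8.05 and 7.52 in shControl. The groups overlapped in each comparison, and the log2 fold change of -0.88 against shTWIST1 had an adjusted p of 0.202. HK1, its constitutive relative, read lower in all shTWIST1+TWIST1 arrays than in all others, by -0.35 against shTWIST1 and -0.28 against shControl (adjusted p = 0.239 and 0.424).

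Of the phosphofructokinases, the platelet form PFKP had log2 fold changes of -0.50 against shTWIST1 (adjusted p = 0.122) and -0.43 against shControl (0.222), without overlap in either. With the replicate number as a block the first passed (adjusted p = 0.0349). The liver form PFKL gave 0.00 and -0.24. The aldolases ALDOA and ALDOC and TPI1 ranged from -0.19 to 0.20 over both comparisons, with adjusted p of 0.462 or more.

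All 8 members of lower glycolysis and pyruvate fate had negative log2 fold changes in both comparisons with shTWIST1+TWIST1, which share the arrays of that group. Over all genes, 48.1% were negative against shTWIST1 and 43.6% against shControl. Some of these values were near 0, such as -0.0008 for ENO1 against shTWIST1 and -0.04 for PDK3 against shControl. Only ENO2 passed, and only against shTWIST1, where 1.77% of all genes were called lower. ENO2 is the neuronal enolase and converts 2-phosphoglycerate to phosphoenolpyruvate, as the widely expressed ENO1 does. It read 5.29, 5.90 and 5.19 with the TWIST1 cDNA, 6.71, 6.15 and 6.56 in shTWIST1 and 6.25, 6.15 and 6.07 in shControl. The arrays with the cDNA were all below the others, with replicate 2 nearest to them. The log2 fold change against shTWIST1 was -1.02 ± 0.20 (adjusted p = 0.0345), or 0.494-fold, and against shControl -0.70 ± 0.20 (adjusted p = 0.144). The call was kept only without replicate 2 of shTWIST1+TWIST1 or of shTWIST1. It was lost without replicate 1 or 3 of shTWIST1+TWIST1 (adjusted p = 0.114 and 0.0986), of shTWIST1 (0.121 and 0.111), or without shControl replicate 1, 2 or 3 (0.0568, 0.0616 and 0.065), and in a fit of only the 6 arrays compared. Against shControl, ENO2 passed without shTWIST1+TWIST1 replicate 2 (adjusted p = 0.0316).

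ENO1 gave 0.00 against shTWIST1 and -0.13 against shControl, with 95% intervals of -0.31 to 0.31 and -0.45 to 0.18. Whether ENO1 and ENO2 differed in their response was not tested.

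PGK1, which makes the first ATP of the chain, read 10.34, 9.96 and 10.33 with the cDNA, 10.62, 10.27 and 10.36 in shTWIST1 and 10.30, 10.22 and 10.42 in shControl. These groups overlapped, and its 95% intervals ran from -0.52 to 0.09 against shTWIST1 and from -0.41 to 0.19 against shControl. LDHA reduces pyruvate to lactate. It read 10.21, 9.25 and 10.60 in shTWIST1+TWIST1, 10.43, 10.21 and 10.45 in shTWIST1 and 10.59, 10.40 and 10.62 in shControl. Replicate 2 with the cDNA lay about 1 log2 unit below the 8 other arrays, and the log2 fold changes were -0.34 against shTWIST1 and -0.52 against shControl (adjusted p = 0.608 and 0.486). The pyruvate dehydrogenase kinases PDK1 and PDK3, which switch off pyruvate entry to the citric acid cycle, gave -0.45 and -0.05 against shTWIST1, and PKM and PGAM1 gave -0.29 and -0.10. None of these 4 had an adjusted p under 0.389 in any comparison.

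**Figure D2:**
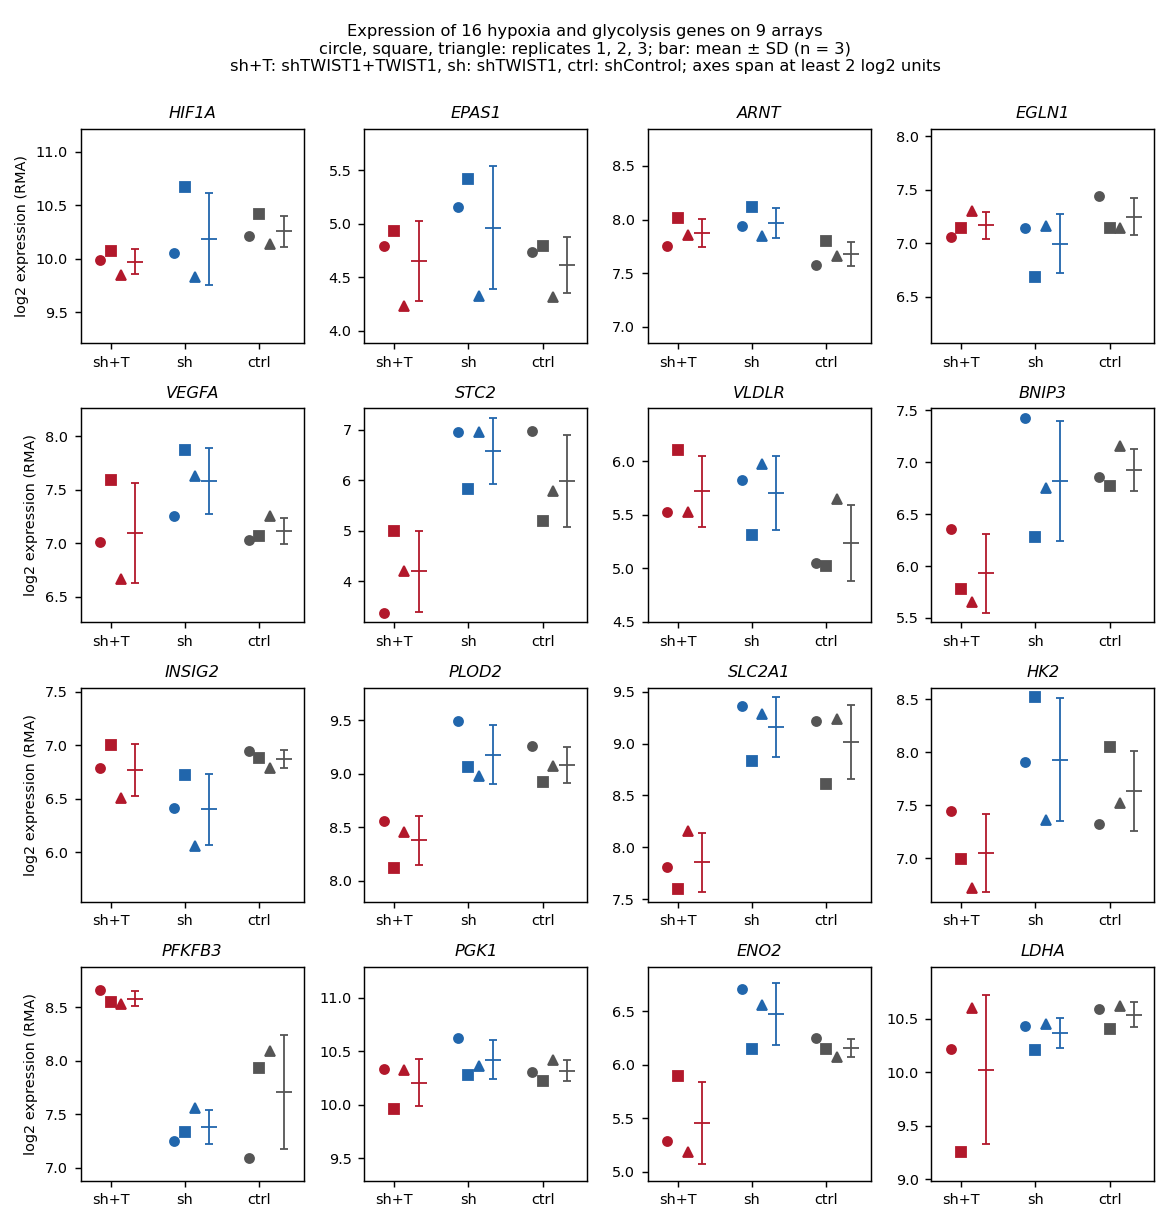
log2 RMA expression (y axis, its own range for each gene) of 16 genes on each array of shTWIST1+TWIST1 (sh+T), shTWIST1 (sh) and shControl (ctrl). Circles, squares and triangles are replicates 1, 2 and 3 and the bars show mean ± SD (n = 3), and the SLC2A1, PLOD2 and ENO2 points with the TWIST1 cDNA lie below all others while those of PFKFB3 lie above.

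The oxygen sensing genes themselves gave no call among 5 members. HIF1A read 9.99, 10.08 and 9.85 in shTWIST1+TWIST1, 10.05, 10.67 and 9.83 in shTWIST1 and 10.21, 10.42 and 10.14 in shControl. The cells with the cDNA lay just below shControl without overlap and within the range of shTWIST1, and the 95% interval was -0.73 to 0.16 against shControl and -0.66 to 0.23 against shTWIST1. HIF1A is controlled mainly through its protein, which the arrays do not measure.

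EPAS1, which encodes HIF2-alpha, read 4.80, 4.93 and 4.23 with the cDNA, 5.15, 5.42 and 4.32 in shTWIST1 and 4.73, 4.80 and 4.32 in shControl, with overlap throughout. ARNT, their shared partner, read 7.75, 8.01 and 7.86 in shTWIST1+TWIST1, 7.94, 8.12 and 7.85 in shTWIST1 and 7.58, 7.79 and 7.66 in shControl. Its shTWIST1 arrays all lay above the shControl arrays, by 0.29 on the log2 scale, with an unadjusted p of 0.0228 and an adjusted p of 0.650. EGLN1, the main oxygen sensor, read 7.06, 7.15 and 7.31 with the cDNA, 7.15, 6.68 and 7.16 in shTWIST1 and 7.45, 7.15 and 7.15 in shControl, again with overlap. EGLN3, an inducible hydroxylase and a HIF target, gave 0.29 against shControl and -0.06 against shTWIST1.

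None of the 6 angiogenic and secreted or surface factors was called. STC2, a secreted glycoprotein that responds to hypoxia and to ER stress, showed the widest difference of all members. It read 3.38, 5.0 and 4.22 with the TWIST1 cDNA, 6.96, 5.84 and 6.96 in shTWIST1 and 6.98, 5.20 and 5.79 in shControl. All 3 arrays with the cDNA lay below the others, but the arrays within each group were up to 1.8 log2 units apart, and the log2 fold changes of -2.39 ± 0.55 against shTWIST1 and -1.79 ± 0.55 against shControl did not pass (adjusted p = 0.0584 and 0.167). Against shTWIST1 it passed without shTWIST1+TWIST1 replicate 2 or shControl replicate 1 and under 4 other settings, the lowest adjusted p being 0.0335. STC1, its paralog, gave 0.20 and 0.37.

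VEGFA, the main angiogenic growth factor, read 7.01, 7.59 and 6.67 in shTWIST1+TWIST1, 7.26, 7.87 and 7.63 in shTWIST1 and 7.03, 7.06 and 7.25 in shControl. The shTWIST1 arrays were all above the shControl arrays, by 0.47 (95% interval -0.07 to 1.01, adjusted p = 0.785), and the cDNA group overlapped both. VLDLR, a lipoprotein receptor, read 5.53, 6.11 and 5.53 with the cDNA, 5.83, 5.32 and 5.98 in shTWIST1 and 5.05, 5.02 and 5.65 in shControl. Its groups overlapped in all comparisons. The vasodilator peptide gene ADM and the lipase inhibitor gene ANGPTL4 ranged from -0.19 to 0.10 over the 3 comparisons.

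The 8 members of mitophagy, stress and pH control gave no call either. BNIP3, a receptor that marks mitochondria for autophagy, read 6.36, 5.77 and 5.65 in shTWIST1+TWIST1, 7.42, 6.28 and 6.75 in shTWIST1 and 6.86, 6.77 and 7.15 in shControl. The cDNA group lay below all shControl arrays and overlapped shTWIST1 through the replicate 2 array of that group. The log2 fold changes were -1.0 against shControl and -0.89 against shTWIST1 (adjusted p = 0.148 and 0.163). Its relative BNIP3L gave 0.06 and -0.09.

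INSIG2, which holds the sterol sensor complex in the ER, read 6.79, 7.01 and 6.51 with the cDNA, 6.42, 6.73 and 6.06 in shTWIST1 and 6.95, 6.88 and 6.78 in shControl. The shTWIST1 arrays lay below all shControl arrays, with a log2 fold change of -0.47 (unadjusted p = 0.0284, adjusted p = 0.675). NDRG1 and ANKRD37 were lower with the cDNA than in shControl without overlap, by -0.47 and -0.59 (adjusted p = 0.320 and 0.222), and DDIT4, an mTORC1 inhibitor, gave -0.54 with overlap. CA12, a carbonic anhydrase of pH control, and the MYC antagonist gene MXI1 ranged from -0.28 to 0.11 over the 3 comparisons.

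Among the collagen hydroxylases, ER oxidation and histone demethylation members, 1 of 6 was called lower against shTWIST1 and none against shControl. Over all genes, 1.77% were called lower against shTWIST1. PLOD2 hydroxylates lysines in collagen telopeptides, which sets the type of cross-link. It read 8.55, 8.12 and 8.46 in shTWIST1+TWIST1, 9.49, 9.06 and 8.98 in shTWIST1 and 9.26, 8.92 and 9.07 in shControl. All arrays with the cDNA were below all others, and shTWIST1 and shControl overlapped. The log2 fold change was -0.80 ± 0.17 against shTWIST1 (adjusted p = 0.0402), or 0.574-fold, and -0.71 ± 0.17 against shControl (adjusted p = 0.0747). With the replicate number as a block in limma both passed (adjusted p = 0.00815 and 0.0158). Without the block, the call against shTWIST1 was lost on leaving out any 1 of the 9 arrays, with adjusted p from 0.0544 (without shControl replicate 1) to 0.11 (without shTWIST1 replicate 1). It was also lost in a fit of only the 6 arrays compared.

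PLOD1, which acts on the collagen helix, gave -0.16 in both comparisons (adjusted p = 0.333 and 0.410). P4HA1 and P4HA2, the catalytic subunits of collagen prolyl 4-hydroxylase, gave -0.48 and -0.40 against shTWIST1 and -0.54 and -0.51 against shControl, with adjusted p between 0.160 and 0.436. KDM3A, a histone H3 lysine demethylase, was lower with the cDNA than in shTWIST1 without overlap, by -0.38 (adjusted p = 0.0507), and ERO1A, which reoxidises protein disulphide isomerase, was higher by 0.22 without overlap (adjusted p = 0.285).

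The upstream sequences of the 4 called genes are shown because HIF dimers bind ACGTG and TWIST1, with its E-protein partners, binds E-boxes of the form CANNTG. RefSeq sequences (GRCh38.p14) were matched for 39 of the 44 members, and VEGFA, NDRG1, BNIP3L, SLC2A3 and STC1 were without one. The 250 bases before the annotated start site are printed 5′ to 3′ on the strand of the gene, and capitals mark ACGTG on either strand (CACGT where it lies on the other strand). They lie at chr3:146161185-146161434 (minus strand) for PLOD2, chr12:6914330-6914579 (plus) for ENO2, chr1:42958869-42959118 (minus) for SLC2A1 and chr10:6144671-6144920 (plus) for PFKFB3.
PLOD2: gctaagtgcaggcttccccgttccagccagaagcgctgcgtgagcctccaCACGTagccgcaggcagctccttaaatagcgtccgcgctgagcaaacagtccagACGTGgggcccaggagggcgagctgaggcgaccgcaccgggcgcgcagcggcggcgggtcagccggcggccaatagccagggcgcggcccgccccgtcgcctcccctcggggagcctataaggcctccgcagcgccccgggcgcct
ENO2: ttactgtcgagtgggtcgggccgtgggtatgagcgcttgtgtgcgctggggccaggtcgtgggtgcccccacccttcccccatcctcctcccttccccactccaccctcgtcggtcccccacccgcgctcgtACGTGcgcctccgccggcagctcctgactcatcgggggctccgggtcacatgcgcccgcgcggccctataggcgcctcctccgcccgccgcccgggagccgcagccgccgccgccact
SLC2A1: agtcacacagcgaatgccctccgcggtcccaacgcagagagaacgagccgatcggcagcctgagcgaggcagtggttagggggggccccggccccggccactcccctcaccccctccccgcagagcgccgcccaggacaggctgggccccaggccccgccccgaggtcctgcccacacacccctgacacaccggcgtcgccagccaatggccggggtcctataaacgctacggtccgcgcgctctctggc
PFKFB3: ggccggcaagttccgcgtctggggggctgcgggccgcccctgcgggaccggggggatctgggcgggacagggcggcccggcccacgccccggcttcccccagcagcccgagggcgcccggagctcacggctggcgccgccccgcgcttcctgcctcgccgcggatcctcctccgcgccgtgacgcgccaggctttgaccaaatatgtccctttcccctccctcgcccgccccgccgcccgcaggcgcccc
PLOD2 held ACGTG with its first base at -200 and at -146 from the start site, ENO2 held it at -118, and SLC2A1 and PFKFB3 held none in this window. CANNTG was found once in ENO2 and not in the 3 others.

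Over the 39 matched members, 16 (41.0%) held at least 1 ACGTG on either strand, against 18.7% of 27305 promoters of the same length, and 7 (17.9%) held 2 or more, against 7.65%. CANNTG, which reads the same on both strands as a pattern, was in 15 members (38.5%) against 62.2% of all promoters. Both motifs overlapped in 4 members (10.3%) against 6.49%, since CACGTG is a CANNTG and was counted as an ACGTG on each strand. LDHA held 5 matches, ANKRD37 and ALDOC 3 each, and BNIP3, HK2, PGK1 and PLOD2 2 each. Of these, PLOD2 alone was called in a comparison. Only ACGTG was searched, so other forms of the HIF motif were not counted. A match describes letters in this window only. The comparison set was not limited to the genes measured on the arrays, and base composition was not matched, so no enrichment is read from these shares.

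**Figure D3:**
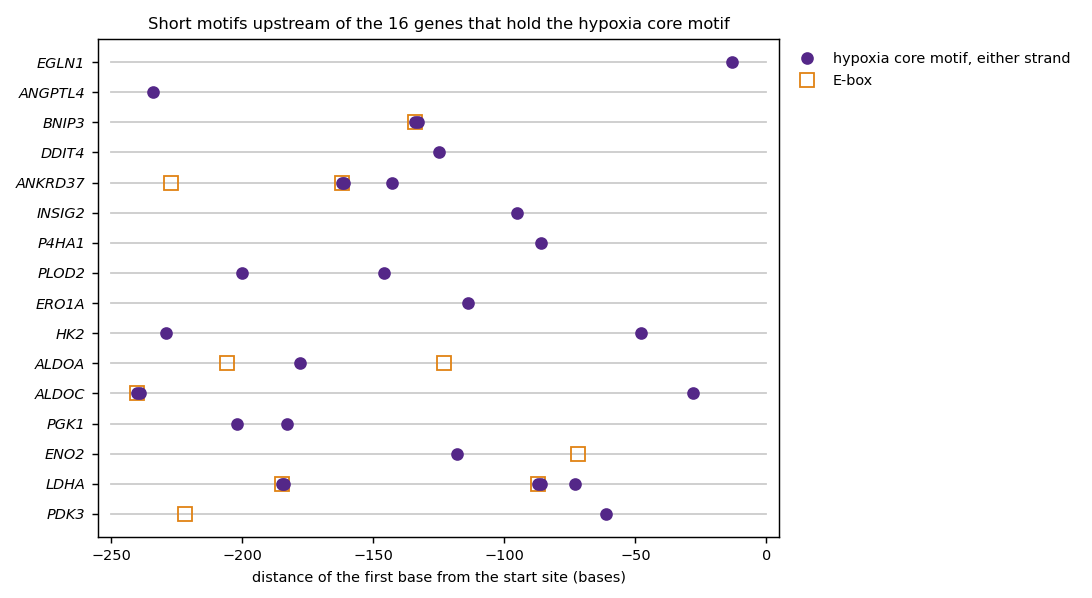
Positions of ACGTG (hypoxia core motif, filled circles) and of E-boxes (open squares) in the 250 bases before the start site. The x axis is the distance of the first base from the start site, for the 16 genes that hold ACGTG. LDHA has the most matches, and adjoining circles inside a square are 1 site read on both strands.

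Other genes of the same pathways were counted from lists that hold no member. Of 31 other HIF targets measured, 1 was called lower against shControl and 1 higher against shTWIST1. The shares of all genes so called were 1.55% and 1.65%. FLT1, a VEGF receptor, read 7.73, 8.93 and 8.37 in shTWIST1+TWIST1, 6.35, 7.15 and 6.93 in shTWIST1 and 7.67, 7.67 and 7.67 in shControl. The 3 shControl values were identical, with an SD of 0. FLT1 was lower in shTWIST1 than in shControl without overlap, by -0.86 (limma, unadjusted p = 0.018, adjusted p = 0.626). Between the cDNA group and shControl its log2 fold change was 0.67, also without overlap, which did not pass (adjusted p = 0.353). Relative to shTWIST1, FLT1 rose by 1.53 ± 0.30 (adjusted p = 0.0299), without overlap. The call was lost without shTWIST1+TWIST1 replicate 3, shTWIST1 replicate 1 or 3, or any 1 shControl array (adjusted p of up to 0.101). TMEM45A, a transmembrane protein gene induced by hypoxia, fell relative to shControl, with a log2 fold change of -0.68 ± 0.11 (adjusted p = 0.019). It read 5.96, 5.76 and 5.66 with the cDNA, 6.06, 5.90 and 6.06 in shTWIST1 and 6.64, 6.31 and 6.46 in shControl. The shTWIST1 arrays too lay below all shControl arrays, by -0.47 (unadjusted p = 0.00281, adjusted p = 0.378), and the difference between shTWIST1+TWIST1 and shTWIST1 was -0.21 with overlap (adjusted p = 0.390). The call against shControl was lost without shTWIST1+TWIST1 replicate 2 or 3 or shControl replicate 1 or 3 (adjusted p of up to 0.0717).

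Of 13 genes of pyruvate fate and lactate transport, 1 was called lower against both shControl and shTWIST1, where 1.55% and 1.77% of all genes were. PDP1 is the phosphatase that reactivates pyruvate dehydrogenase and so opposes the kinases PDK1 and PDK3. It read 7.52, 7.93 and 7.85 with the TWIST1 cDNA, 9.67, 9.22 and 9.31 in shTWIST1 and 9.91, 9.12 and 9.42 in shControl. Each array with the cDNA lay more than 1 log2 unit below every other array, with a log2 fold change of -1.72 ± 0.21 against shControl and -1.63 ± 0.21 against shTWIST1 (adjusted p = 0.00527 and 0.00579), or 0.305-fold and 0.323-fold. Both calls were kept on leaving out any 1 array (adjusted p of at most 0.0292). The pyruvate dehydrogenase subunit genes PDHA1 and PDHB gave -0.01 and 0.33 against shTWIST1 and did not pass.

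None of 15 other HIF pathway regulators, 23 other glycolysis genes and 12 genes of gluconeogenesis and the pentose phosphate pathway was called in any comparison. Their median log2 fold changes against shTWIST1 were 0.10, 0.05 and 0.03. The median of the 31 other HIF targets against shTWIST1 was -0.10, with 23 (74.2%) negative against 48.1% of all genes. Against shControl it was -0.08, with 18 (58.1%) negative against 43.6% of all genes. The median of the 13 genes of pyruvate fate and lactate transport against shTWIST1 was 0.03. VHL, the substrate receptor for hydroxylated HIF-alpha, read 5.43, 5.43 and 5.08 in shTWIST1+TWIST1, 4.86, 4.88 and 4.88 in shTWIST1 and 4.32, 4.88 and 4.76 in shControl. Its log2 fold changes of 0.66 against shControl and 0.44 against shTWIST1 did not pass (adjusted p = 0.0689 and 0.186). CITED2, of the same list, was lower with the cDNA without overlap in both comparisons. Its values of -0.43 against shControl and -0.50 against shTWIST1 did not pass either (adjusted p = 0.175 and 0.091). VHL and CITED2 were chosen after their values were seen. Of the 15 regulators, 9 had positive and 6 had negative values in each of these comparisons.

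The members were compared by replicate number without a count over all genes, so no pattern particular to them is read from it. On the replicate 2 arrays, 16 members lay below and 7 above the mean of replicates 1 and 3 in all 3 groups. Those below included SLC2A1, PLOD2, BNIP3, PFKP, ALDOA, TPI1, PGK1, PGAM1, PKM and LDHA, and those above included HIF1A, EPAS1, ARNT, NDRG1 and SLC2A3. The 16 genes of the ATF4 and unfolded protein response, which answer to amino acid shortage and ER stress, were read by their mean. Not every gene of that list followed the mean, and ATF4 itself read 5.21, 4.39 and 4.61 with the cDNA, lowest on replicate 2. The mean of the 16 was 6.82, 7.99 and 6.58 with the cDNA, 7.0, 7.71 and 7.02 in shTWIST1 and 6.74, 7.14 and 6.76 in shControl, highest on replicate 2 of each group. By limma, 0 of 16 were called in any comparison. With the 6 arrays of replicates 1 and 3 alone, 2 members passed against shControl, SLC2A1 and ENO2, and 3 against shTWIST1, SLC2A1, ENO2 and STC2, while PLOD2 and PFKFB3 did not. The part of this difference in the members' values was not tested beyond that. The map of deviations shows the pattern by array.

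**Figure D4:**
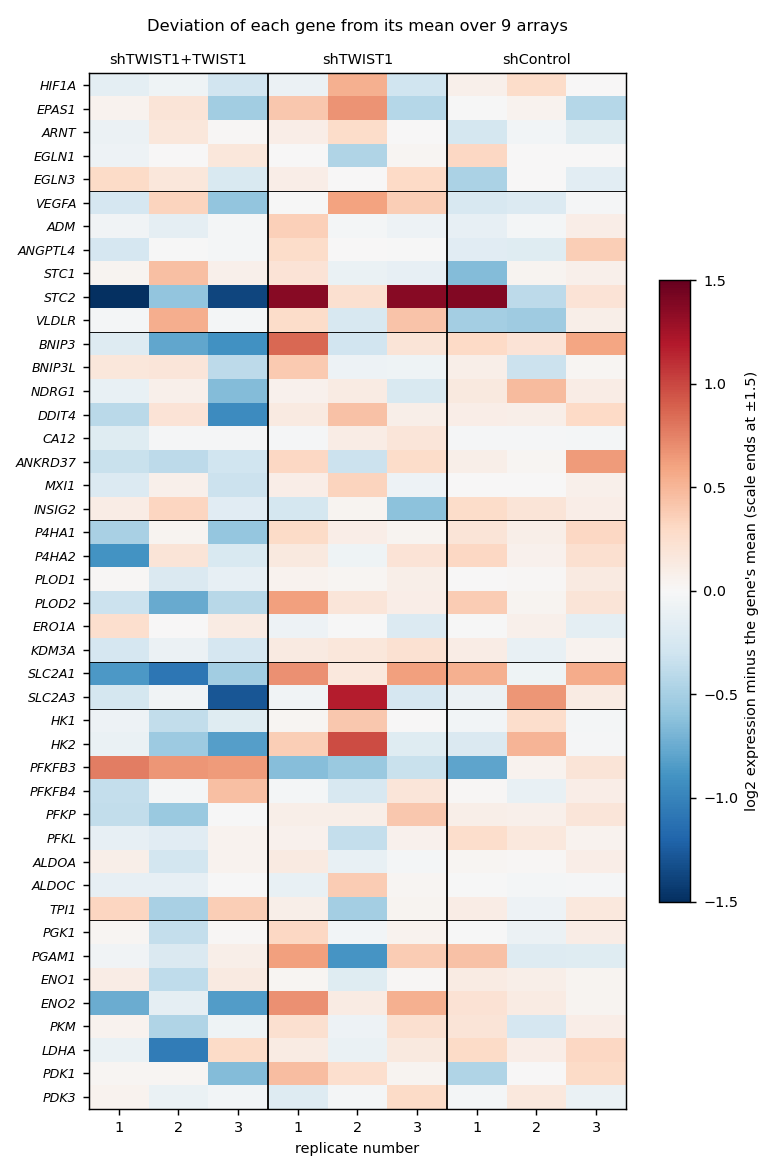
Deviation of each of the 44 genes (rows, lines separate the roles) from its own mean over the 9 arrays, in log2 units, for replicates 1 to 3 of shTWIST1+TWIST1, shTWIST1 and shControl. Blue is below and red above the mean, and SLC2A1, PLOD2, ENO2 and STC2 are blue on all 3 arrays with the TWIST1 cDNA while PFKFB3 is red on them.

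Markers of other states moved with the TWIST1 cDNA beside these genes. Beside MITF and SOX10, S100B, a neural crest and melanocyte marker, had log2 fold changes of -2.38 relative to shControl and -1.77 relative to shTWIST1 (adjusted p = 0.000543 and 0.00177). S100B was also lower in shTWIST1 than in shControl without overlap, by -0.61 (unadjusted p = 0.00896, adjusted p = 0.549). Of 6 fibroblast markers 1, PDGFRA, was called, and it rose by 1.17 and 1.72 (adjusted p = 0.00956 and 0.00128). The mean of the fibroblast list was 6.28, 5.47 and 5.46 with the cDNA, 4.59, 4.91 and 4.41 in shTWIST1 and 4.71, 5.07 and 4.67 in shControl, and DCN read 6.68 on replicate 1 with the cDNA against 2.74 to 3.50 on the 8 others. LUM read 7.85, 6.28 and 6.15 with the cDNA, 5.10, 5.23 and 4.15 in shTWIST1 and 5.57, 5.40 and 4.17 in shControl, and FAP read 7.14, 7.33 and 7.23 with the cDNA, 4.66, 6.69 and 4.84 in shTWIST1 and 5.64, 7.06 and 6.03 in shControl. Both were higher with the cDNA without overlap in both comparisons but did not pass, with adjusted p of 0.107 and 0.122 against shTWIST1 and 0.181 and 0.467 against shControl. COL1A1 lay between 4.43 and 4.7 and COL1A2 between 3.16 and 3.44 on all 9 arrays. The keratinocyte, endothelial and leukocyte lists averaged 3.04 to 3.68 on every array, and 1 of their 16 genes, CD68, was called, lower with the cDNA than in shTWIST1 by 0.79 (adjusted p = 0.0351). CD68 was higher in shTWIST1 than in shControl without overlap, by 0.62 (unadjusted p = 0.00391, adjusted p = 0.425). Its difference between the cDNA group and shControl was -0.17 (adjusted p = 0.709). The part of these markers in the members' differences was not tested.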

How the data were processed

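RNA of 9 samples of WM793TR cells was amplified with a NuGEN kit, labelled with biotin and hybridised to single-colour arrays. The authors deposited log2 expression values after RMA (background correction, quantile normalisation and probe set summary), a step that pulls the array distributions together. The RMA version and the array design are not given in the sources used here. Of 20673 probe sets, each named by a gene ID, 738 had no symbol and were left out, as was 1 of 2 probe sets with the same symbol, which left 19934 genes. Arrays correlated at 0.975 to 0.994. The number of arrays limits the precision, and no detection calls or counts were used.

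One limma fit (3.58.1, R 4.3.3) of the 3 groups on all genes gave each contrast, with empirical Bayes variances and Benjamini-Hochberg adjustment over all genes at 0.05. The script was tested on simulated data. Figures and motif searches used Python 3.11.15. The 45 members and the other gene lists were chosen with earlier results of these data known. Per-array values are given for members called in a comparison, for the 4 with the largest fold change in each and for 9 fixed genes. Other members are given by fold change, and up to 4 called genes of each other list are named.

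Deviations of arrays with the same replicate number correlated at 0.142, 0.296 and 0.304 for shTWIST1+TWIST1 with shTWIST1 and at 0.322, 0.508 and 0.288 for shTWIST1 with shControl, so the numbers were taken to pair these arrays. For shTWIST1+TWIST1 with shControl the correlations were 0.0321, 0.216 and 0.107, and the numbers were not taken to pair these arrays. The same numbers run through all 3 groups, so this choice is open, and block results are given for each comparison. The alternatives were another normalisation, a filter on dim genes, other variance and array weight settings, only the arrays compared, the replicate block, the methods' t-test and leaving out each array. A fit without the replicate 2 arrays was chosen after seeing the data.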

Additional observations from a re-analysis of the deposited data

How the results depend on the processing

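No called member changed sign, in the comparison that called it, under any alternative run. Against shControl, where 1 member was called, quantile normalisation, median centring, the filter on dim genes and a trended robust prior gave 1 as well, array weights gave 3 (P4HA1 and ENO2 added), the replicate block 2 (PLOD2 added, adjusted p = 0.0158), only the 6 arrays compared 0, the methods' t-test 0 adjusted and 3 unadjusted, the arrays of replicates 1 and 3 2 (ENO2 added), and leaving out 1 array 0 to 2. Against shTWIST1, where 4 were called, only the 6 arrays compared gave 2 (PLOD2 and ENO2 lost), the methods' t-test 0 adjusted and 6 unadjusted, the replicate block 5 (PFKP added), array weights 5 (PFKFB3 lost, STC2 and KDM3A added), and leaving out 1 array 0 to 6, with 0 without shTWIST1+TWIST1 replicate 1, shTWIST1 replicate 1 or shTWIST1 replicate 3. Beside PFKP the block changed no call among the members in the paired comparisons. Knockdown against shControl gave 0 members under every alternative. The cause of these changes was not tested beyond the fewer arrays in some fits. Over all genes, 523, 682 and 13 were called in shTWIST1+TWIST1 against shControl, shTWIST1+TWIST1 against shTWIST1 and shTWIST1 against shControl. Only the arrays compared gave 260, 353 and 11, the block 801, 1076 and 12, the methods' t-test 3, 2 and 0 adjusted and 1588, 1669 and 804 unadjusted, array weights 639, 793 and 25, and the replicate 1 and 3 arrays 278, 576 and 5. With 3 arrays per group, a member that missed the threshold was not shown to be level.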
